A study of Mus musculus with 12 samples.

Results

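Expression of the 10 genes that encode VEGF, angiopoietin and PDGF ligands was examined in the kidney cortex of mice 7 days after unilateral ureteral obstruction (UUO). The genes were chosen by symbol (Vegfa, Vegfb, Vegfc, Pgf, Angpt1, Angpt2, Pdgfa, Pdgfb, Pdgfc and Pdgfd), and all 10 were found among the 23183 symbols of every library and passed the filter on low values. Acot12+/+ (wild-type) and Acot12-/- mice were compared, each with its obstructed (UUO) and its contralateral (CL) kidney, which gave 4 groups of 3 libraries and 12 libraries in all. All mice were male C57BL/6N animals of 6 to 7 weeks (the sample labels give the strain as C57BL/6). Acot12-/- mice carried a germline mutant allele of the gene, made with an RNA-guided nuclease, in every tissue. The CL kidneys came from operated mice and are not kidneys of unoperated animals. The deposited values carry no unit and were taken as FPKM. These are fragment counts corrected for transcript length and library depth, so that levels of different genes can be set side by side.

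VEGF ligands act on receptor tyrosine kinases of endothelial cells. In the kidney, podocytes and tubular cells make Vegfa, which keeps the glomerular and peritubular capillaries alive. Angpt1 activates the endothelial receptor Tek, whereas Angpt2, stored in endothelial cells, competes with it in many settings. PDGF ligands act on the receptors Pdgfra and Pdgfrb of fibroblasts, mesangial cells and pericytes, the cells that expand in the fibrotic kidney.

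Acot12 stood at 73.8, 52.7 and 78.1 FPKM in Acot12+/+ CL kidneys and at 9.98, 16.7 and 21.2 FPKM in Acot12+/+ UUO kidneys. Acot12-/- kidneys had 9.14, 9.01 and 6.8 FPKM on the CL side and 3.28, 1.8 and 3.86 FPKM on the UUO side, so that each knockout group lay below the wild-type group of the same side without being at 0. Depth, estimated from the steps between low values, was 12375000 to 16240000 fragments in CL libraries and 18470000 to 22920000 in UUO libraries. Replicate 2 of the Acot12-/- CL group stood apart, at -52.3 on the second principal component (9.46% of the variance) against 22.2 and 33.0 for the other two libraries of its group. Markers of the cortex were present in every library: the summed level of 6 proximal tubule genes was 985 to 2880 FPKM on the CL side and 125 to 610 FPKM on the UUO side, and that of 6 podocyte genes 61.2 to 126 FPKM over all 12. In bulk cortex, fewer cells of a type and less RNA per cell cannot be told apart.

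After UUO, Pdgfb and Pdgfa rose and Vegfa, Vegfb and Angpt1 fell in mice of both genotypes, by limma on log2(FPKM + 1) with p-values adjusted over the 13243 genes tested. Pgf and Angpt2 rose and Pdgfc fell past the threshold (adjusted p under 0.05) in the Acot12-/- mice, and Vegfc and Pdgfd passed it in neither genotype. The 5 ligands called in Acot12+/+ mice (2 higher, 3 lower) are to be read against a background of 47.5% of all genes called, 23.6% higher and 23.9% lower. For the 8 called in Acot12-/- mice (4 higher, 4 lower) the background was 53.7%, with 26.6% higher and 27.2% lower. The median log2 change over the 10 ligands was 0.04 in Acot12+/+ and 0.53 in Acot12-/- mice, beside 0.005 and -0.011 over all genes tested. UUO and CL libraries did not overlap for 6 ligands in Acot12+/+ and for 8 in Acot12-/- mice, whereas 71.3% and 55.4% of all genes showed no overlap. Between genotypes no ligand passed the test on either side, and no ligand passed the test of a difference in response.

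**Figure D1:**
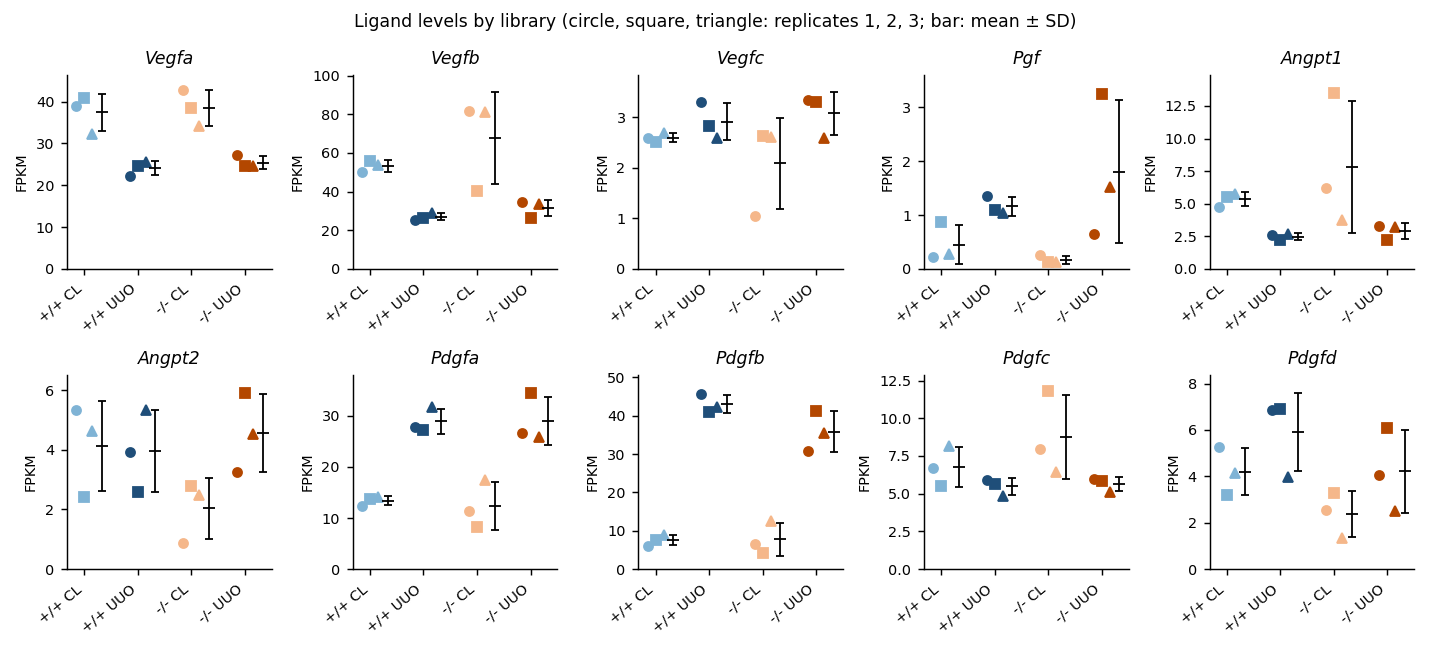
FPKM of each ligand (vertical axis, from 0) in the 4 groups (horizontal axis, +/+ for Acot12+/+ and -/- for Acot12-/-), with a point for each of 3 libraries and the mean ± SD beside them. Pdgfb moved from 4.26 to 12.6 FPKM in the CL libraries to 30.8 to 45.7 FPKM in the UUO libraries, and Vegfb of Acot12-/- CL replicate 2 (40.2 FPKM) lies far below the other two of its group.

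The order of the ligands by level changed with obstruction. Among Acot12+/+ CL kidneys, Vegfb led with 53.3 ± 3.02 FPKM (SD, n = 3), followed by Vegfa with 37.4 ± 4.53 FPKM and Pdgfa with 13.4 ± 0.881 FPKM, and the libraries of these neighbours did not overlap. Pdgfb, Pdgfc, Angpt1, Pdgfd, Angpt2 and Vegfc followed between 7.58 and 2.59 FPKM with overlapping neighbours, and Pgf was lowest at 0.453 ± 0.358 FPKM, clear of Vegfc. Among Acot12+/+ UUO kidneys Pdgfb took the first place with 43.0 ± 2.4 FPKM, and Pdgfa (28.9 ± 2.48), Vegfb (26.9 ± 1.86) and Vegfa (24.2 ± 1.7) came next with overlapping neighbours. In Acot12-/- mice the leading ligand was likewise Vegfb on the CL side (67.7 ± 23.8 FPKM) and Pdgfb on the UUO side (35.9 ± 5.27 FPKM), in each case with libraries that overlapped those of the next ligand. Pgf was lowest in all 4 groups.

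Vegfa, the main survival and permeability factor of endothelium, lies at chr17:46016993-46032369 on the minus strand (GRCm38). Wild-type CL kidneys had 39.0, 40.9 and 32.3 FPKM, and UUO kidneys 22.3, 24.7 and 25.6 FPKM. Acot12-/- mice had 42.8, 38.5 and 34.2 FPKM on the CL and 27.2, 24.5 and 24.5 FPKM on the UUO side. No UUO library reached a CL library of the same genotype. Vegfa changed by -0.60 on the log2 scale (SE 0.14, adjusted p = 0.00444) in Acot12+/+ and -0.58 (SE 0.14, adjusted p = 0.00455) in Acot12-/- mice, by limma. With 1440 to 2058 fragments per library, estimated from FPKM, depth and the length of its longest coding transcript, Vegfa was the best covered of the VEGF genes.

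Vegfb, a ligand of the receptor Flt1, is at chr19:6982473-6987651 on the minus strand. It gave 50.1, 56.0 and 53.9 FPKM in Acot12+/+ CL kidneys against 25.3, 26.4 and 28.9 FPKM in UUO kidneys. In Acot12-/- mice it gave 81.7, 40.2 and 81.1 FPKM in CL kidneys against 34.5, 26.5 and 33.5 FPKM in UUO kidneys. The groups were again disjoint, although replicate 2 of the Acot12-/- CL group lay far below the other two and near the highest UUO library. Its log2 change was -0.96 (SE 0.24, adjusted p = 0.00548) in Acot12+/+ and -1.02 (SE 0.24, adjusted p = 0.00319) in Acot12-/- mice, and -1.35 (SE 0.13, adjusted p = 1.5e-05) in the latter without replicate 2 of the CL group.

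The size of these falls depends on the scale. UUO libraries had lower FPKM totals than CL libraries, and scaling all libraries to equal totals put the median log2 change of all genes at 0.55 in Acot12+/+ and 0.42 in Acot12-/- mice and moved the share of lower calls among all genes called from 50.3% to 16.0% and from 50.5% to 22.9%. On that scale Vegfa changed by -0.01 (adjusted p = 0.983) and -0.10 (adjusted p = 0.645), and Vegfb by -0.37 (adjusted p = 0.125) and -0.54 (adjusted p = 0.0328). Relative to the shift of all genes the values were -0.56 and -0.53 for Vegfa and -0.92 and -0.96 for Vegfb. Podocyte markers, of which 1 of 6 was called higher and 1 lower in each genotype, had summed levels of 71.4 to 103 FPKM in Acot12+/+ CL and 61.2 to 79.9 FPKM in UUO kidneys. Of the 6 proximal tubule genes, 5 were called lower in Acot12+/+ and 6 in Acot12-/- mice. Among all genes, 23.6% were called higher and 23.9% lower in Acot12+/+ mice, and 26.6% and 27.2% in Acot12-/- mice. The part of these cells in the fall of Vegfa was not tested.

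The sequences just upstream of the starts of Vegfa and Vegfb are shown because these 2 genes fell together (RefSeq, GRCm38.p6, 250 bases before the annotated start, on the coding strand). Capitals mark GGGCGG on either strand, the core of a GC box bound by Sp-family factors. The windows are chr17:46032378-46032627 and chr19:6987652-6987901, both on the minus strand and free of annotated exons.
Vegfa: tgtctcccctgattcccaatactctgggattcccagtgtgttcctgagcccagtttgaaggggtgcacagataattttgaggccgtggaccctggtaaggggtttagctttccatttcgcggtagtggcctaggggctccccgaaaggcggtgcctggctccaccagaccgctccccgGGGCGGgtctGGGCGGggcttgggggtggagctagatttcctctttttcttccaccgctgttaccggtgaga
Vegfb: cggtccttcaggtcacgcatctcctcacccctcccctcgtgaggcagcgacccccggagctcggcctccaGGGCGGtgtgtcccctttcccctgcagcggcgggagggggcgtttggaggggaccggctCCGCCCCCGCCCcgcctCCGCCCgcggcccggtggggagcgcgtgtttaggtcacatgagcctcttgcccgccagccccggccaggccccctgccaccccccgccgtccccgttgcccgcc
The letters GGGCGG occurred 2 times in the Vegfa and 4 times in the Vegfb window, and in 32.7% of the 32851 upstream windows of all genes. Over the 10 windows of the 7 ligands with an entry (Vegfa, Vegfb, Vegfc, Pgf, Pdgfa, Pdgfc and Pdgfd), 7 windows of 5 ligands held it. These were Vegfa, Vegfb, Vegfc, Pgf and Pdgfa, so that Pdgfa, which rose after UUO, held it as well. A shared control of Vegfa and Vegfb was not tested. The window of Vegfb had a GC content of 76.4% and that of Vegfa 59.2%, where the median of all windows was 52.4%. The core ACGTG of the hypoxia response element occurred in 1 ligand window (16.6% of all windows). It was that of a second Vegfa start inside the gene, and this window overlaps an annotated Vegfa exon. TATAAA occurred in 1, that of Pdgfd (7.59% of all), and TGANTCA, the AP-1 site, in 0 (6.75% of all). Sites farther than 250 bases from a start were not searched, so the counts do not show whether a gene has such an element.

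Vegfc, the ligand of the lymphatic receptor Flt4, did not pass the test in either genotype. It stood at 2.58, 2.5 and 2.68 FPKM in Acot12+/+ CL and at 3.31, 2.83 and 2.59 FPKM in UUO kidneys. Acot12-/- kidneys had 1.05, 2.62 and 2.61 FPKM on the CL and 3.34, 3.31 and 2.59 FPKM on the UUO side. The low value was that of Acot12-/- CL replicate 1, and the groups overlapped in both genotypes. Vegfc changed by 0.12 (95% confidence interval -0.31 to 0.55) in Acot12+/+ and 0.44 (0.01 to 0.87; adjusted p = 0.0789) in Acot12-/- mice. Without Acot12-/- CL replicate 2 the latter was 0.58 and passed (adjusted p = 0.0277), and it passed without CL replicate 3 as well (adjusted p = 0.0361). Without CL replicate 1, the low library, it was 0.17 (adjusted p = 0.328). With equal totals Vegfc passed in both genotypes (adjusted p = 0.037 and 0.00761), with changes of 0.09 and 0.46 relative to the shift of all genes.

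Pgf, placental growth factor and a ligand of Flt1, was the rarest of the 10, with an estimated 3 to 20 fragments per CL library and 26 to 110 per UUO library. Its levels were 0.221, 0.865 and 0.273 FPKM in Acot12+/+ CL kidneys and 1.35, 1.1 and 1.03 FPKM in UUO kidneys. Acot12-/- kidneys gave 0.258, 0.13 and 0.119 FPKM on the CL side and 0.649, 3.25 and 1.53 FPKM on the UUO side. UUO and CL libraries were disjoint in both genotypes. On the log2 scale Pgf changed by 0.60 (SE 0.28, adjusted p = 0.0944) in Acot12+/+ and 1.16 (SE 0.28, adjusted p = 0.00373) in Acot12-/- mice, which is muted by the pseudocount of 1 at such low values. The difference between these responses was 0.56 with a 95% confidence interval of -0.29 to 1.41 (adjusted p = 0.729). With equal totals Pgf passed in Acot12+/+ mice too (adjusted p = 0.0144), at 0.55 relative to the shift of all genes, and with only the compared groups in the fit it did as well (adjusted p = 0.0227).

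Angpt1, the activating ligand of Tek, fell in both genotypes (chr15:42424723-42676977, minus strand). It stood at 4.74, 5.53 and 5.78 FPKM in Acot12+/+ CL kidneys and at 2.57, 2.19 and 2.65 FPKM in UUO kidneys. In Acot12-/- kidneys it stood at 6.24, 13.5 and 3.76 FPKM on the CL side and at 3.31, 2.23 and 3.21 FPKM on the UUO side. The value of 13.5 FPKM was that of the library that stood apart, and the groups were disjoint with or without it. Angpt1 changed by -0.87 (SE 0.30, adjusted p = 0.0328) in Acot12+/+ and -1.03 (SE 0.30, adjusted p = 0.0128) in Acot12-/- mice. Without Acot12-/- CL replicate 2 the latter was -0.60 (SE 0.19, adjusted p = 0.0162). The call in Acot12+/+ mice was lost whichever of its 6 libraries was left out (adjusted p = 0.0554 to 0.0926), and the call in Acot12-/- mice without UUO replicate 2 (adjusted p = 0.0542). Dropping the filter on low values ended the former call (adjusted p = 0.0571), and fitting only the compared groups the latter (adjusted p = 0.0542). With equal totals the changes were -0.43 (adjusted p = 0.325) and -0.68 (adjusted p = 0.124), or -0.98 and -1.10 relative to the shift of all genes.

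Angpt2 rose in Acot12-/- mice and gave overlapping groups in Acot12+/+ mice. Acot12+/+ CL kidneys had 5.34, 2.42 and 4.62 FPKM and UUO kidneys 3.94, 2.6 and 5.33 FPKM. Acot12-/- CL kidneys had 0.862, 2.79 and 2.47 FPKM and UUO kidneys 3.27, 5.89 and 4.53 FPKM. The UUO levels of both genotypes overlapped, and 2 of the 3 Acot12-/- CL libraries lay within the wild-type CL range while replicate 1 lay far below it. The log2 change was -0.04 (SE 0.32, adjusted p = 0.93) in Acot12+/+ and 0.91 (SE 0.32, adjusted p = 0.0293) in Acot12-/- mice. The difference between these 2 responses was 0.95 with a 95% confidence interval of -0.03 to 1.93 and was not called (adjusted p = 0.499, and 0.149 without Acot12-/- CL replicate 2). The call in Acot12-/- mice was lost without CL replicate 1 (adjusted p = 0.127), UUO replicate 2 (adjusted p = 0.112) or UUO replicate 3 (adjusted p = 0.0679), and with no filter on low values (adjusted p = 0.0511). Endothelial markers moved with it: 9 of 10 were called higher after UUO in Acot12-/- mice (median log2 change 1.15) and 1 higher and 1 lower in Acot12+/+ mice (median -0.20). Of all genes, 26.6% were called higher in Acot12-/- mice, and 23.6% higher and 23.9% lower in Acot12+/+ mice. The part of endothelial cells in the rise of Angpt2 was not tested.

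The ratio of Angpt2 to Angpt1 within a library does not depend on the scaling of the library. It was 1.13, 0.438 and 0.799 in Acot12+/+ CL kidneys and 1.53, 1.19 and 2.01 in UUO kidneys. Acot12-/- kidneys had ratios of 0.138, 0.207 and 0.658 on the CL side and 0.99, 2.64 and 1.41 on the UUO side. In both genotypes each UUO library exceeded each CL library. The mean log2 ratio went from -0.45 ± 0.69 to 0.62 ± 0.38 (SD, n = 3) in Acot12+/+ and from -1.91 ± 1.17 to 0.63 ± 0.72 in Acot12-/- mice. Averaged over the genotypes, the rise was 1.80 (two-sided exact permutation test within genotype, p = 0.005, the smallest the 400 arrangements can give). This test moves side labels freely among the libraries of a genotype and takes no account of pairs by number. Swaps within such pairs would allow fewer arrangements, and that test was not run.

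**Figure D2:**
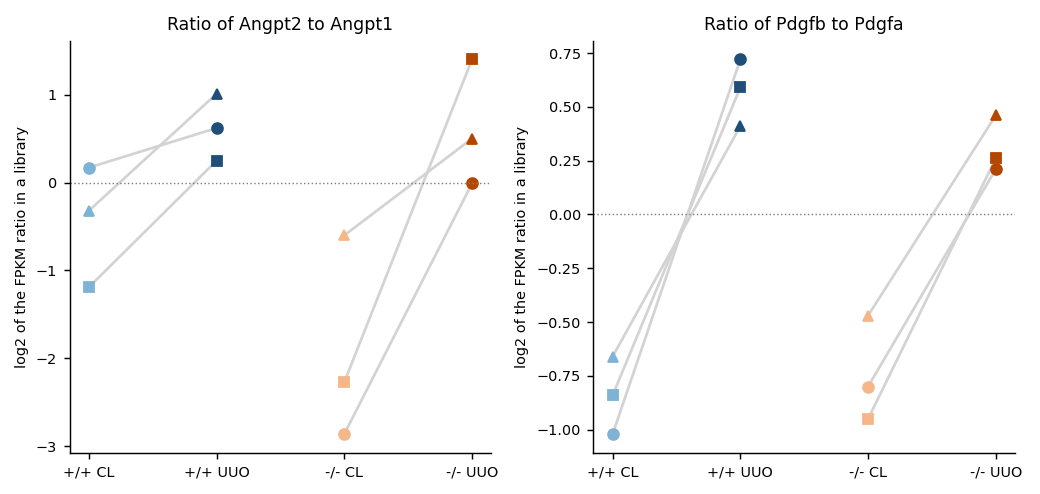
Ratio of Angpt2 to Angpt1 (left) and of Pdgfb to Pdgfa (right) in each library, as log2 on the vertical axis, by group on the horizontal axis. Circle, square and triangle are replicates 1, 2 and 3, and gray lines join the CL and UUO libraries of the same number and genotype. Each line rises, and the dotted line at 0 marks equal levels of both ligands.

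Pdgfa, which forms the PDGF-AA dimer and acts on Pdgfra, rose with obstruction (chr5:138976014-138997370, minus strand). Its levels were 12.4, 13.8 and 14.1 FPKM in Acot12+/+ CL and 27.7, 27.3 and 31.8 FPKM in UUO kidneys. Acot12-/- kidneys had 11.4, 8.22 and 17.5 FPKM on the CL and 26.6, 34.5 and 25.9 FPKM on the UUO side. The groups were disjoint in both genotypes. The mean FPKM ratio was 2.16 in Acot12+/+ (log2 change 1.05, SE 0.22, adjusted p = 0.00199) and 2.35 in Acot12-/- mice (1.22, SE 0.22, adjusted p = 0.000564).

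Pdgfb, the ligand that draws pericytes to vessels through Pdgfrb, had the largest change of the 10 on the log2(FPKM + 1) scale in both genotypes (chr15:79995874-80014977, minus strand). CL kidneys of Acot12+/+ mice had 6.14, 7.71 and 8.89 FPKM and UUO kidneys 45.7, 41.1 and 42.2 FPKM. Those of Acot12-/- mice had 6.55, 4.26 and 12.6 FPKM and 30.8, 41.3 and 35.6 FPKM. The lowest UUO library of all exceeded the highest CL library by more than the whole CL range. The mean rose 5.67-fold in Acot12+/+ (log2 change 2.37, SE 0.28, adjusted p = 4.88e-05) and 4.6-fold in Acot12-/- mice (2.17, SE 0.28, adjusted p = 4.86e-05). Leaving out any of the libraries gave changes of 2.24 to 2.48 and of 1.86 to 2.54. Since Pdgfb rose more than Pdgfa, the ratio of Pdgfb to Pdgfa went from 0.494 to 0.722 over the 6 CL libraries to 1.16 to 1.65 over the 6 UUO libraries. With a pseudocount of 0.1, Pgf exceeded Pdgfb in Acot12-/- mice (2.61 against 2.32). The ratio of Pdgfb to Pdgfa was chosen after its values were seen and was not tested.

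Platelets and macrophages also express Pdgfb. The 4 platelet markers summed to 10.7 to 17.7 FPKM in Acot12+/+ CL and 31.4 to 39.7 FPKM in UUO kidneys, and to 3.85 to 6.61 and 27.5 to 54.3 FPKM in Acot12-/- mice, with Gp9 at 0 in a library of each group. Of the 3 that were tested, 1 was called higher and 1 lower in Acot12+/+ mice, and 2 higher and 0 lower in Acot12-/- mice. The 6 macrophage markers summed to 129 to 151 FPKM in Acot12+/+ CL and 548 to 659 FPKM in UUO kidneys, and to 48.6 to 101 and 593 to 756 FPKM in Acot12-/- mice, and 5 and 6 of them were called higher. Beside these counts, 23.6% of all genes were called higher and 23.9% lower in Acot12+/+ mice, and 26.6% and 27.2% in Acot12-/- mice. The part of platelets and macrophages in the rise of Pdgfb was not tested.

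Pdgfc and Pdgfd are secreted as latent dimers that proteases activate, with tissue plasminogen activator (Plat) acting on PDGF-CC and urokinase (Plau) on PDGF-DD. Pdgfc stood at 6.71, 5.51 and 8.14 FPKM in Acot12+/+ CL and 5.94, 5.66 and 4.86 FPKM in UUO kidneys. In Acot12-/- mice it stood at 7.96, 11.8 and 6.44 FPKM on the CL and 5.96, 5.83 and 5.09 FPKM on the UUO side. Only the Acot12-/- groups were disjoint, and their highest value was again that of CL replicate 2. The log2 change of Pdgfc was -0.25 (SE 0.20, adjusted p = 0.307) in Acot12+/+ and -0.52 (SE 0.20, adjusted p = 0.0399) in Acot12-/- mice. The latter call was lost without any of 5 of the 6 libraries of the genotype, CL replicate 3 being the exception, and without CL replicate 2 the change was -0.30 (adjusted p = 0.104). The call was also lost with no filter on low values (adjusted p = 0.0591), median-ratio scaling (adjusted p = 0.0615) and only the compared groups in the fit (adjusted p = 0.111). With equal totals it was -0.10 (adjusted p = 0.767), or -0.52 relative to the shift of all genes.

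Pdgfd stood at 5.25, 3.21 and 4.14 FPKM in Acot12+/+ CL and 6.88, 6.89 and 3.99 FPKM in UUO kidneys. Acot12-/- kidneys had 2.56, 3.28 and 1.34 FPKM on the CL and 4.07, 6.09 and 2.52 FPKM on the UUO side. The groups overlapped in both genotypes. Pdgfd changed by 0.40 (95% confidence interval -0.24 to 1.04) in Acot12+/+ and 0.61 (-0.03 to 1.25; adjusted p = 0.0991) in Acot12-/- mice, and the latter passed the threshold without CL replicate 2 (0.80, adjusted p = 0.0446) or without UUO replicate 3 (0.86, adjusted p = 0.0333). Without CL replicate 3 or UUO replicate 2 it was 0.36 (adjusted p = 0.322 and 0.359). With equal totals Pdgfd passed in both genotypes (adjusted p = 0.0368 and 0.0268), at 0.42 and 0.63 relative to the shift of all genes.

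**Figure D3:**
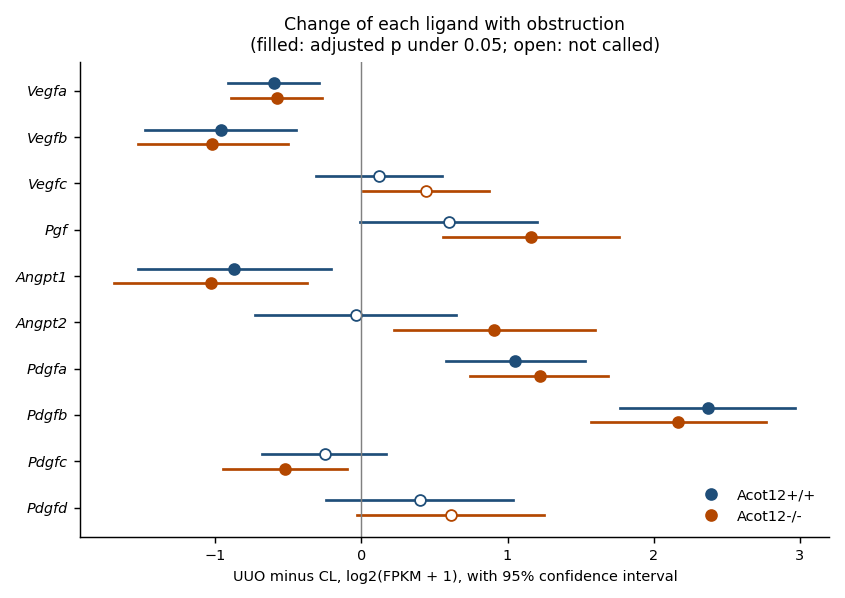
Log2 change from CL to UUO of each ligand, on the log2(FPKM + 1) scale, with its 95% confidence interval by limma, in Acot12+/+ (blue) and Acot12-/- mice (orange). Filled points passed the adjusted p threshold: 5 in Acot12+/+ and 8 in Acot12-/- mice, and the intervals of the 2 genotypes overlap for each ligand.

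Kidneys of the same number were also compared. Over the 6 CL and UUO pairs, Vegfa, Vegfb and Angpt1 were lower in UUO in 6 and Pgf, Pdgfa and Pdgfb higher in 6. The UUO and CL groups of these 6 ligands were disjoint in both genotypes. Any pairing therefore gives these counts, and they add nothing to the comparison of groups. Angpt2 and Pdgfd were higher in 5 pairs, Pdgfc was lower in 5 and Vegfc was higher in 4.

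No ligand differed between genotypes past the threshold. In UUO kidneys the log2 differences (Acot12-/- minus Acot12+/+) ran from -0.43 for Pdgfd to 0.27 for Pgf, 0 of 10 ligands were called and 0 were disjoint, where 0.0151% of all genes were called (2 genes, and 312 at an unadjusted p under 0.05) and 12.0% were disjoint. The 95% confidence intervals were narrowest for Vegfa, -0.24 to 0.38, and reached from -1.07 to 0.21 for Pdgfd. In CL kidneys 4.48% of all genes were called (593 genes, and 2289 at an unadjusted p under 0.05) and 18.3% were disjoint, against 0 and 0 of the 10 ligands. The largest differences there were those of Angpt2, -0.77 (95% confidence interval -1.46 to -0.08, adjusted p = 0.23), and Pdgfd, -0.64 (-1.28 to -0.00, adjusted p = 0.288). Vegfb gave 0.27 (adjusted p = 0.643) and, without Acot12-/- CL replicate 2, 0.60 (SE 0.13, adjusted p = 0.0102), so that this library decides the call. The response to UUO differed between genotypes in 0 of 10 ligands (0.106% of all genes, 14 genes, and 1389 at an unadjusted p under 0.05), with differences from -0.27 for Pdgfc to 0.95 for Angpt2.

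The receptors of these ligands differed between genotypes in the CL kidneys. Of all genes, 3.36% were called lower and 1.12% higher there. All 10 genes of the receptor lists had lower means in Acot12-/- than in Acot12+/+ CL kidneys, and 7 of them passed the test: the VEGF receptors Flt1 (-0.84, adjusted p = 0.0141) and Flt4 (-0.70, adjusted p = 0.0377), the coreceptor Nrp2 (-1.05, adjusted p = 0.0165), Tek (-1.11, adjusted p = 0.0262), its partner Tie1 (-1.07, adjusted p = 0.00335), the endothelial phosphatase Ptprb (-0.75, adjusted p = 0.0365) and Pdgfrb (-1.11, adjusted p = 0.00895). Kdr (-0.80, adjusted p = 0.101), Nrp1 (-0.61, adjusted p = 0.284) and Pdgfra (-0.95, adjusted p = 0.0678) did not pass with all libraries and did without Acot12-/- CL replicate 2 (adjusted p = 0.047, 0.0134 and 0.00407). Of the 7 calls, those of Tie1 and Pdgfrb held when any library of these groups was left out and the other 5 did not. All 7 were lost when only the CL groups were fitted (adjusted p = 0.0743 to 0.214), Flt4 and Ptprb with equal totals (adjusted p = 0.0699 and 0.092) and with no filter on low values (adjusted p = 0.054 and 0.0634). In UUO kidneys 0 of these 10 genes was called, with differences from -0.00 for Pdgfra to 0.30 for Tie1.

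Endothelial markers differed in the same direction as the receptors. For the counts below, the share of all genes called lower in Acot12-/- CL kidneys was 3.36%. The 10 endothelial genes summed to 193 to 295 FPKM in Acot12+/+ CL and 73.4 to 117 FPKM in Acot12-/- CL kidneys, 8 of 10 were called lower, and none was at 0. In UUO kidneys the sums were 173 to 222 and 193 to 249 FPKM. The 8 mural cell markers summed to 90.4 to 106 FPKM in Acot12+/+ CL and 43.1 to 55.1 FPKM in Acot12-/- CL kidneys, with 3 called lower. Fibroblast markers summed to 119 to 152 and 33.0 to 96.0 FPKM, with 6 of 6 lower, 1 of them called, and a median difference of -0.93, and 3 of 6 macrophage markers were called lower (median -1.10). The 6 proximal tubule genes lay higher in Acot12-/- CL kidneys (median 0.71), with 0 called. The part of these cells in the receptor levels was not tested.

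**Figure D4:**
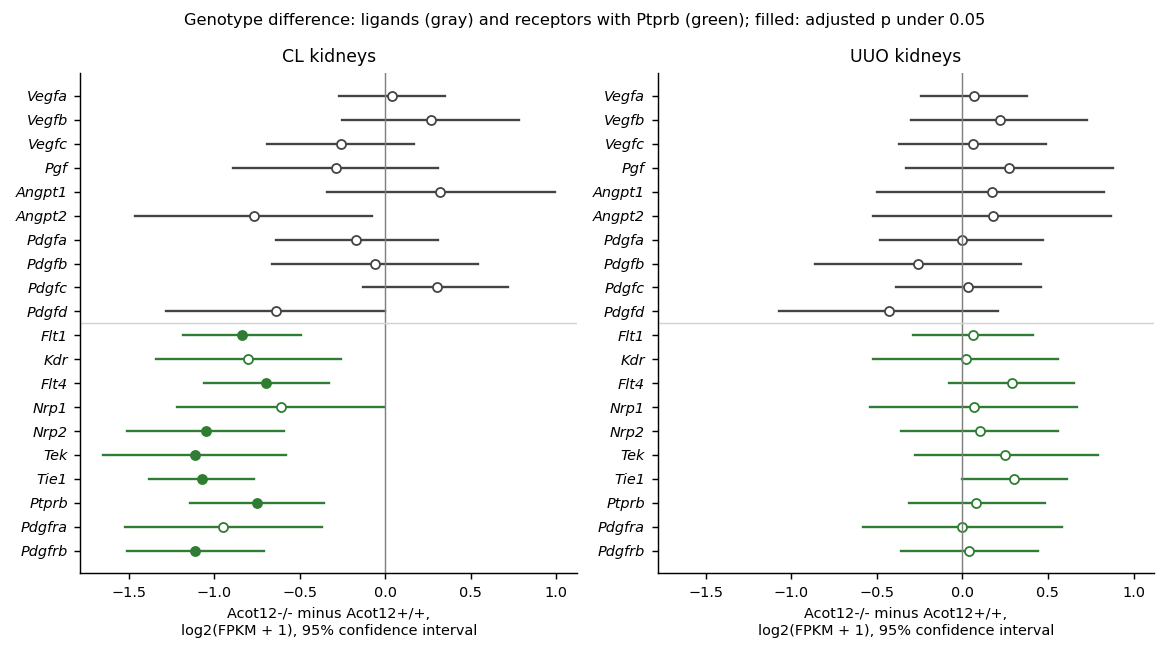
Genotype difference (Acot12-/- minus Acot12+/+, log2(FPKM + 1) scale, 95% confidence interval by limma) of the 10 ligands (gray) and of their receptors with Ptprb (green), in CL kidneys (left) and UUO kidneys (right). Filled points passed the adjusted p threshold: 7 of the 10 receptor genes in CL kidneys, none of the ligands and none in UUO kidneys.

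With obstruction, the receptors that passed the test were not all the same in the 2 genotypes, and equal totals changed which ones passed. Pdgfrb went from 8.1, 8.21 and 8.33 FPKM in Acot12+/+ CL to 16.7, 17.3 and 24.8 FPKM in UUO kidneys (log2 change 1.14, adjusted p = 0.000402). In Acot12-/- mice it went from 2.93, 2.67 and 4.41 FPKM to 17.5, 19.9 and 22.6 FPKM (2.29, adjusted p = 2.41e-06), so that the UUO levels of both genotypes overlapped. Pdgfra changed by 0.63 (adjusted p = 0.0675) in Acot12+/+ and rose by 1.58 (adjusted p = 0.000346) in Acot12-/- mice. Among the receptors of VEGF, Flt1 (-0.46, adjusted p = 0.0309) and Kdr (-0.73, adjusted p = 0.0303) fell in Acot12+/+ mice, where Nrp1 (-0.16), Nrp2 (0.26) and Flt4 (0.13) were not called. In Acot12-/- mice Flt1 (0.43, adjusted p = 0.0369), Flt4 (1.11, adjusted p = 0.000175) and Nrp2 (1.41, adjusted p = 0.000153) rose, and Kdr (0.09) and Nrp1 (0.52) were not called. Tek fell in Acot12+/+ mice (-0.88, adjusted p = 0.0116) and Tie1 rose in Acot12-/- mice (1.33, adjusted p = 1.38e-05). With equal totals the Acot12+/+ values of Flt1, Kdr and Tek were 0.02, -0.30 and -0.36, and none of the 3 was called; relative to the shift of all genes they were -0.54, -0.85 and -0.91. The wild-type calls were lost without CL replicate 3, UUO replicate 1 or UUO replicate 2 for Flt1, without any library but CL replicate 2 for Kdr and without CL replicate 3 for Tek (adjusted p = 0.0554). In Acot12-/- mice the call of Flt1 was lost without CL replicate 1, CL replicate 3, UUO replicate 2 or UUO replicate 3, and Nrp1 (0.86, adjusted p = 0.00504), Tek (0.80, adjusted p = 0.00313) and Ptprb (0.66, adjusted p = 0.00109) passed without CL replicate 2. Under the replicate block Pdgfra passed in Acot12+/+ (adjusted p = 0.0392) and Ptprb in Acot12-/- mice (0.44, adjusted p = 0.0279). With only the compared groups in the fit, Kdr in Acot12+/+ (adjusted p = 0.0595) and Flt1 in Acot12-/- mice (adjusted p = 0.0946) were lost, and Pdgfra (adjusted p = 0.0198) and Ptprb (-0.39, adjusted p = 0.0233) passed in Acot12+/+ mice. With no filter, Kdr in Acot12+/+ (adjusted p = 0.0506) and Flt1 in Acot12-/- mice (adjusted p = 0.0539) were lost. Equal totals also added calls. Flt4, Nrp2, Tie1 and Pdgfra then passed in Acot12+/+ mice (adjusted p = 0.0292, 0.0176, 0.0167 and 0.00387). Their changes were 0.61, 0.82, 0.53 and 1.22, or 0.05, 0.27, -0.03 and 0.67 relative to the shift of all genes. Nrp1, Tek and Ptprb passed in Acot12-/- mice (adjusted p = 0.0103, 0.0134 and 0.00665), at 0.58, 0.52 and 0.46 relative to that shift.

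The test of the difference between these responses called 1 of the 10 receptor genes, Tie1 (1.38, SE 0.20, adjusted p = 0.0287), and this call was lost when any of 10 of the 12 libraries was left out, with no filter on low values (adjusted p = 0.0674) and with equal totals (adjusted p = 0.0883). With all libraries, that test called 0.106% of all genes. With the replicate number as a block, which takes kidneys of the same number as a pair, Flt1, Flt4, Nrp2 (each adjusted p = 0.0453) and Pdgfrb (adjusted p = 0.0379) were called besides Tie1 (adjusted p = 0.0101). Without Acot12-/- CL replicate 2, 8 of the 10 passed, with Kdr (adjusted p = 0.159) and Nrp1 (adjusted p = 0.0586) as exceptions, and still none of the 10 ligands did.

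Of the other ligands of the families, Vegfd (listed under its older symbol Figf) rose from 4.59, 4.96 and 3.97 FPKM to 8.35, 7.93 and 8.2 FPKM in Acot12-/- mice (0.74, adjusted p = 0.000401). In Acot12+/+ mice it changed by 0.22 (adjusted p = 0.168). With equal totals Vegfd passed there too (0.79, adjusted p = 0.0022), at 0.24 relative to the shift of all genes. The difference between the responses was 0.52 and was not called (adjusted p = 0.28), but passed without Acot12-/- CL replicate 2 (adjusted p = 0.0476). Angpt4, at 0.0 to 0.206 FPKM, did not pass the filter on low values.

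Genes for proteases that process the ligands, listed together with Ccbe1, were called in both directions. Of 5 tested genes, 2 rose and 1 fell in Acot12+/+ mice, and 3 rose and 1 fell in Acot12-/- mice, while Adamts3 was too low to test. Of all genes, 23.6% rose and 23.9% fell in Acot12+/+ mice, and 26.6% rose and 27.2% fell in Acot12-/- mice. Plat rose by 2.54 (adjusted p = 9.8e-06) in Acot12+/+ and 1.91 (adjusted p = 2.61e-05) in Acot12-/- mice, and Plau by 1.00 (adjusted p = 0.00675) and 0.66 (adjusted p = 0.0438). The Acot12-/- call of Plau was lost when any library but CL replicate 1 was left out (adjusted p = 0.0622 to 0.12), with no filter (adjusted p = 0.0605) and with only the compared groups in the fit (adjusted p = 0.07). Pcsk5, a proprotein convertase, changed by -0.37 (adjusted p = 0.0324) and -0.74 (adjusted p = 0.000465), and with equal totals by 0.12 and -0.36, neither of them called, or by -0.43 and -0.78 relative to the shift of all genes. Its call in Acot12+/+ mice was lost when any library but UUO replicate 1 was left out (adjusted p = 0.0615 to 0.106). Ccbe1, which promotes the cleavage of VEGF-C, rose in Acot12-/- mice (0.85, adjusted p = 0.00159). Between genotypes only Pcsk5 was called, higher in Acot12-/- CL kidneys (0.57, adjusted p = 0.0295). That call was lost without any wild-type CL library or Acot12-/- CL replicate 1 (adjusted p = 0.0695 to 0.111), and with equal totals (adjusted p = 0.128). Without Acot12-/- CL replicate 2, Furin (0.87, adjusted p = 0.00472) and Ccbe1 (-0.57, adjusted p = 0.0298) passed there too.

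Vegfa is a classical target of hypoxia-inducible factors. Among 8 genes of these factors and their hydroxylases, 0 rose and 1 fell in Acot12+/+ mice (the prolyl hydroxylase Egln2, -1.06, adjusted p = 0.0336), and Epas1 rose (0.99, adjusted p = 0.000899) and Egln1 fell (-0.68, adjusted p = 0.00344) in Acot12-/- mice. The shares of all genes called were 23.6% higher and 23.9% lower in Acot12+/+ mice, and 26.6% higher and 27.2% lower in Acot12-/- mice. With equal totals these falls of Egln2 (-0.48, or -1.03 relative to the shift of all genes) and Egln1 (-0.22, or -0.64) were not called. Epas1, Arnt, Hif1an and Vhl then passed as higher in Acot12+/+ mice (adjusted p = 0.00646, 0.0121, 0.00288 and 0.0306). Their changes were 0.79, 0.74, 0.74 and 0.42, or 0.24, 0.19, 0.19 and -0.13 relative to that shift. Vhl also passed in Acot12-/- mice on that scale (0.42, adjusted p = 0.0315), at -0.0 relative to the shift. The call of Egln2 was lost whichever wild-type library was left out (adjusted p = 0.0596 to 0.0978) and with no filter (adjusted p = 0.0552). Egln2 gave -0.59 in Acot12-/- mice (adjusted p = 0.2) and, without CL replicate 2, -1.19 (adjusted p = 5.04e-05). Under the replicate block Egln1 passed in Acot12+/+ mice too (-0.38, adjusted p = 0.0371), as it did with only the compared groups in the fit (adjusted p = 0.0216), where Hif1a also passed (-0.59, adjusted p = 0.009). Of 10 further hypoxia response genes 2 rose and 4 fell in each genotype, beside 23.6% and 23.9% of all genes in Acot12+/+ and 26.6% and 27.2% in Acot12-/- mice. Bnip3 (-1.62 and -1.67), Car9 (-1.15 and -1.42), Pdk1 (-0.88 and -0.88) and P4ha1 (-0.34 and -0.56) fell in both and P4ha2 (0.95 and 0.63) rose in both. Kdm3a rose in Acot12+/+ (0.35, adjusted p = 0.039) and the glucose transporter Slc2a1 in Acot12-/- mice (0.64, adjusted p = 0.0186). Several of these calls did not hold when single libraries were left out. P4ha1 in Acot12+/+ mice was lost when any library but CL replicate 2 was left out (adjusted p = 0.0776 to 0.105), P4ha2 in Acot12-/- mice when any but CL replicate 3 was (adjusted p = 0.0561 to 0.0667), and Kdm3a when any but CL replicate 3 was (adjusted p = 0.0795 to 0.146). Slc2a1 was lost without CL replicate 1, UUO replicate 2 or UUO replicate 3 (adjusted p = 0.0518 to 0.0675). With only the compared groups in the fit, P4ha2 in Acot12-/- mice (adjusted p = 0.0965) and Slc2a1 (adjusted p = 0.0541) were lost, and Kdm3a with no filter (adjusted p = 0.0501). The list thus moved in both directions, and its median was -0.33 and -0.42. With equal totals, Bnip3 and Car9 were still called lower in both genotypes, Pdk1 and P4ha1 in neither, and P4ha1 stood at 0.24 in Acot12+/+ mice, or at -0.31 relative to the shift of all genes. Slc2a1 passed with equal totals in Acot12+/+ mice too (1.04, adjusted p = 0.000439), at 0.49 relative to that shift. Kdm3a likewise passed in Acot12-/- mice (0.59, adjusted p = 0.0154), at 0.17 relative to it.

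Genes for inhibitors of angiogenesis rose. All 5 that could be tested of 6 listed passed in both genotypes, where 23.6% and 26.6% of all genes rose, with Vash2 too low to test: Thbs2 (2.10 and 2.34), Col18a1, the source of endostatin (1.72 and 1.65), Serpinf1 (1.43 and 1.27), Thbs1 (1.42 and 1.74) and Vash1 (1.10 and 1.59). None of the 5 was called between genotypes on either side.

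The genes whose pattern over the 12 libraries was most like that of each ligand were found by Pearson correlation of log2(FPKM + 1), given as a description, since the libraries share the contrast between UUO and CL kidneys. For Pdgfb they were Clic1 (r = 0.994), Zbtb42 (0.994) and Zmynd15 (0.991), and for Pdgfa they were Tmem98 (0.991), Vat1 (0.99) and Rela (0.987). Vegfb was most like Abhd14a (0.991), Slc25a34 (0.986) and Smpd1 (0.986), and Vegfa most like Cog7 (0.97), Tbccd1 (0.958) and Nbn (0.955). Angpt1 followed Pvrl3 (0.978) and Atp6ap2 (0.977), and Pdgfc followed Zc3h12c (0.982), Jmy (0.959) and Dennd6a (0.947), all 5 of them over libraries that include the high value of Acot12-/- CL replicate 2. Without that library the 5 values were 0.974, 0.97, 0.967, 0.917 and 0.859. Angpt2 was most like Lmo2 (0.935), Sox7 (0.918) and Bambi (0.911), and Lmo2 and Sox7 are known from endothelium. Pgf had Isg20 (0.966), Spaca6 (0.958) and Helz2 (0.953), Vegfc had Nop56 (0.906), Emp2 (0.873) and Epc1 (0.869), and Pdgfd had Ammecr1 (0.91), 4930426D05Rik (0.909) and Luzp1 (0.906) as nearest genes.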

How the data were processed

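Total RNA of kidney cortex was sequenced after a directional NEBNext Ultra II preparation, and a service provider carried out trimming, mapping and normalization. The aligner is not given in the sources used here, and the submitters' processing notes name mm10 and edgeR. The deposited values carry no unit. They were taken as FPKM made by the authors' provider, because the low values of a library are multiples of a unit that shrinks as transcripts lengthen, which also gave the depth (12375000 to 22920000 fragments). Count models do not apply to FPKM.

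Groups came from the sample titles. Genes with at least 1 FPKM in at least 3 libraries were tested (13243), and 58 genes listed at 0 beside at least 10 FPKM in the same group were left out, a choice made after the values were seen. limma 3.58.1 in R 4.3.3 was fitted to log2(FPKM + 1) with a variance trend and all 4 groups in a single model, and p-values were adjusted by Benjamini-Hochberg over all genes tested, which measures only the spread between these libraries, since the labels do not state that each comes from its own mouse. A fold change on this scale understates the change of low genes. The fit was tested on simulated data.

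The members, gene lists and tests were chosen with earlier results of these data known. All 10 ligands, all receptors and up to 4 called genes per other list were named, with the 3 genes most like each ligand in pattern, of which 1 is not reported here. Gene positions come from the GENCODE annotation of GRCm38, promoter windows from RefSeq. Residuals of CL and UUO libraries with the same number correlated in each genotype (r = 0.134 to 0.364, against -0.363 to 0.139 with different numbers). The numbers were therefore taken to pair kidneys, which the labels do not state and which was not tested. Alternatives were the replicate block, scaling by median ratios or to equal totals, dropping the filter, a pseudocount of 0.1, only the groups compared, and leaving out each library.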

Additional observations from a re-analysis of the deposited data

How the results depend on the processing

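The count of ligands called after UUO was 4 to 6 in Acot12+/+ mice and 5 to 9 in Acot12-/- mice over all alternatives, the latter at 5 without UUO replicate 2 and 9 without CL replicate 2 or 3. The replicate block, which takes kidneys of the same number as pairs, left 5 and 8 ligands called and changed no ligand's call, but moved the genes with a different response by genotype from 14 to 203. That count was 0 with no filter, 0 with equal totals and 0 to 898 when single libraries were left out (898 without Acot12-/- CL replicate 2, 0 when any single wild-type library was left out). Genes called between genotypes in UUO kidneys went from 2 to 0 with a pseudocount of 0.1, without the filter, under the block, with only the groups compared and with genes listed at 0 kept, and were 0 to 2 with single libraries left out. In CL kidneys 593 became 1 with only the groups compared and 187 to 2917 with single libraries left out (2917 without Acot12-/- CL replicate 2), and the ligands called there 0 to 1. The causes were not tested.

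With equal totals, Angpt2 (0.49) and Pdgfc (0.29) changed sign in Acot12+/+ mice, where they stood at -0.06 and -0.26 relative to the shift of all genes, as did the genotype differences in UUO kidneys of Vegfa (-0.08), Vegfc (-0.06) and Pdgfc (-0.10) and the difference of responses of Vegfa (-0.10). None was called before or after. Leaving out single libraries turned the sign of other differences that were not called. In CL kidneys the genotype difference ran from -0.11 to 0.69 for Angpt1, -0.43 to 0.07 for Pdgfa, -0.43 to 0.25 for Pdgfb, -0.06 to 0.12 for Vegfa and -0.40 to 0.01 for Vegfc. In UUO kidneys it ran from -0.03 to 0.37 for Angpt2, -0.13 to 0.07 for Pdgfa, -0.04 to 0.09 for Pdgfc, -0.08 to 0.60 for Pgf and -0.00 to 0.15 for Vegfc. The wild-type change of Angpt2 ran from -0.31 to 0.17. The difference of responses ran from -0.53 to 0.28 for Angpt1, -0.07 to 0.43 for Pdgfa, -0.51 to 0.17 for Pdgfb, -0.04 to 0.47 for Pdgfd, -0.06 to 0.12 for Vegfa and -0.39 to 0.12 for Vegfb. The rise in the ratio of Angpt2 to Angpt1 was 1.57 to 2.13 with single libraries left out, a check added after the data were seen (exact permutation p = 0.005 to 0.02). These p-values, too, take no account of pairs by number. A fit with only the groups compared cannot be made for the difference of responses. FPKM carry no counts, so for Pgf, with few fragments per library, counting error enters only through the spread between replicates.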
